A study of Mus musculus with 8 samples.

Results

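Among the 22180 genes measured, 8 that were much lower in liver lacking the corepressor NCOR were described one by one: Clec2h, Selenbp2, Obp2a, Nlrp6, Susd4, Krt23, Gpr155 and Adh6-ps1. They were chosen by the size of their drop in the same knockout livers that are shown here, so the comparison of knockout with control is given for them as a description, with no test. Each row of the array table that was annotated to only 1 of these symbols was taken, which gave 10 rows, 3 of them for Gpr155 and 1 for each other gene. The 8 genes lie on 6 chromosomes. In all 8 the 4 knockout values lay below the 4 control values, a pattern seen in 5.49% of all genes, and from which nothing is read here because that contrast picked the genes.

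NCOR is a scaffold protein that nuclear receptors without activating ligand, and some other transcription factors, use to bring the deacetylase HDAC3 to their target genes, and it is best known for holding genes down. The 8 genes cover a surface lectin, a complement inhibitor, an innate immune sensor, a secreted lipid carrier, a selenium binding protein, a keratin, a lysosomal sterol sensor and a transcribed pseudogene.

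The arrays came from 3-month-old mice kept on normal chow. Mice with a floxed NCOR allele received a vein injection of adeno-associated virus, a delivery vector that enters hepatocytes, encoding Cre recombinase for the knockout group (NCOR_KO, AAV-Cre, 4 arrays) or GFP for the control group (WT, AAV-GFP, 4 arrays). The labels call the controls wild-type but the design text describes floxed animals for both viruses, so the allele of the controls is unclear, and loss of NCOR and presence of Cre cannot be told apart. Livers were collected 2 weeks after injection, at 5 in the afternoon (ZT10). The promoter driving Cre and the sex of the mice are not given in the labels, and the level of the deleted gene was not analysed here.

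Array medians lay between 41.0 and 44.1 on the linear intensity scale, and array profiles correlated at 0.992 to 0.997 across genes, which are not independent replicates. The only stated difference between arrays of a group is the replicate number, and no label ties an array to a separate animal beyond the word biological, so errors measure the spread between these samples. WT replicate 2 and NCOR_KO replicate 1 stood lowest on the second principal component (-20.5 and -12.2, with the others at -0.30 or above). Without both of them the differences of the 8 genes ran from -1.88 (Obp2a) to -0.75 (Krt23). All 15 measured hepatocyte markers lay above the median gene in control liver, and their summed intensity was 103846 to 106614 in control and 102735 to 104584 in knockout arrays. Of these markers 1 fell, Cebpa (-0.35, adjusted p = 0.0158), and 5 of 15 lay above 0.

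The stretch before the annotated start was read for the genes with an entry in the RefSeq promoter table (GRCm38.p6), 7 of the 8 with 8 windows in all. The 3 genes with the largest differences are shown first, because their windows differ in composition, then the window of Gpr155 for its nuclear receptor element and that of Krt23 for its E-box. Each is the 250 bases upstream of the start, 5′ to 3′ on the strand of the gene, and capitals mark every match, on either strand, to the motifs named after them. The places are chr6:128662135-128662384 (plus strand) for Clec2h, chr3:94693323-94693572 (plus) for Selenbp2, chr2:25699824-25700073 (plus) for Obp2a, chr2:73386481-73386730 (minus) for Gpr155 and chr11:99493121-99493370 (minus) for Krt23.
Clec2h: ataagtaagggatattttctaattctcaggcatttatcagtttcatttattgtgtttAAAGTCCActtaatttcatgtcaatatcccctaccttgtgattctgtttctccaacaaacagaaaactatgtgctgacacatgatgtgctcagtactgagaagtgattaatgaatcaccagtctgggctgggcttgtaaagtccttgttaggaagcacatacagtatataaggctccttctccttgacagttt
Selenbp2: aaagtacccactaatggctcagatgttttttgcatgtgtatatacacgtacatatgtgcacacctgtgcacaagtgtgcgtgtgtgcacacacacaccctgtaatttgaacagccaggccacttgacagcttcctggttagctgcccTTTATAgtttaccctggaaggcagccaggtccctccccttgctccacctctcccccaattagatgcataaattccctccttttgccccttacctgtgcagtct
Obp2a: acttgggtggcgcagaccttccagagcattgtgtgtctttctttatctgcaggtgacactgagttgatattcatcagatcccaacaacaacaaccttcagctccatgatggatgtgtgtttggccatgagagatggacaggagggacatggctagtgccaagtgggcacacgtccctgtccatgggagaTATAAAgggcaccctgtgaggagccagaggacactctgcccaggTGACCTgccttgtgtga
Gpr155: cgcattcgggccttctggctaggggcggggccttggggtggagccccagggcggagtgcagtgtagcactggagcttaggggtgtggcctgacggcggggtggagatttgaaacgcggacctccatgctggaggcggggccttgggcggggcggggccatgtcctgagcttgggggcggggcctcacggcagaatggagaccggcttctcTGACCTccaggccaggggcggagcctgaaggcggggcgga
Krt23: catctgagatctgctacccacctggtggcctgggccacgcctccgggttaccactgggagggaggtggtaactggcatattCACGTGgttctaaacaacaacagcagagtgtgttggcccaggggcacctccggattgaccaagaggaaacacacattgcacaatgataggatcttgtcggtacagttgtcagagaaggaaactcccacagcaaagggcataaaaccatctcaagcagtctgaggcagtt

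The windows had little in common. Their GC content ran from 37.2% in Clec2h through 45.6% in Nlrp6, 49.2% in Selenbp2, 52.4% in Obp2a and 52.8% in Krt23 to 70.4% in Gpr155 and 61.6% and 82.8% at the 2 starts of Susd4, where the median of all 32851 windows was 52.4%. The nuclear receptor core element AGGTCA was found in 2 of the 8 windows, at -17 to -12 in Obp2a and -40 to -35 in Gpr155, both times on the other strand, and in 14% of all windows. The TATA box TATAAA (12.4% of all windows) matched in Obp2a at -61 to -56 on the gene strand. In Selenbp2 it matched only on the other strand, at -103 to -98. The E-box CACGTG (6.02%), which reads the same on both strands, matched in Krt23 at -169 to -164. The HNF4 core AAAGTCCA (1.01%) matched in Clec2h at -193 to -186, on the gene strand. The STAT element TTCNNNGAA, the D-box TTATGTAA and the HNF1 core GTTAAT were in 0 of the 8 windows and in 7.02%, 0.819% and 6.43% of all windows. These are letter matches in a short stretch, not bound sites.

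Clec2h encodes Clr-f, a C-type lectin-like surface protein of the family recognised by NKR-P1 receptors on natural killer cells. Its probe set (17463443) read 9.01, 8.43, 8.49 and 8.23 on the log2 scale in WT replicates 1 to 4, and 6.08, 6.34, 7.15 and 6.76 in NCOR_KO replicates 1 to 4. The groups were far apart, with 1.08 log2 units between the lowest control and the highest knockout array. The means were 8.54 ± 0.33 and 6.58 ± 0.47 (SD, n = 4), a difference of -1.95 ± 0.22 (SE of the fit), so knockout liver held 25.8% of the control level. Leaving out single arrays gave -2.14 to -1.79. Whether fewer cells make these transcripts or each cell holds less of them cannot be told apart in whole liver RNA.

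Selenbp2, a cytosolic selenium binding protein known in mouse liver for binding a reactive acetaminophen metabolite, was the most abundant signal of the 8, above 98.3% of all genes in control liver. WT replicates 1 to 4 read 11.60, 11.42, 11.42 and 11.90, and NCOR_KO replicates 1 to 4 read 9.54, 10.24, 9.98 and 9.71 (log2 intensity). The gap between the groups, 1.17, was the widest of the 8 genes, and the spread inside each group was small beside it (SD 0.23 and 0.31, n = 4). The difference of -1.72 ± 0.15 (SE) left 30.4% of the control level. Selenbp1 is a near-identical paralog, and probes of such pairs can share signal. Its own probe set did not pass the threshold, at 10.42 ± 0.10 in control and 10.37 ± 0.13 in knockout liver (SD, n = 4; difference -0.05, adjusted p = 0.807).

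Obp2a, a lipocalin also catalogued as Lcn13, belongs to a family of small secreted carriers of lipophilic molecules. It varied most from array to array. WT replicates 1 to 4 read 8.15, 7.39, 6.36 and 7.52 and NCOR_KO replicates 1 to 4 read 5.599, 6.34, 5.22 and 4.84 (log2 intensity). WT replicate 3 and NCOR_KO replicate 2 nearly touched, 0.02 apart, so the separation of the groups rests on a very thin margin although the mean difference was large, -1.86 ± 0.38 (SE). With single arrays left out the difference ran from -1.59, without WT replicate 1, to -2.19, without WT replicate 3.

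Nlrp6 encodes a NOD-like receptor that senses microbial products and viral RNA and is best studied in gut epithelium. In control liver it read 9.78, 10.002, 9.87 and 10.13, above 92.7% of genes, and in knockout liver 8.59, 8.79, 9.08 and 9.01 (log2 intensity, replicates 1 to 4). The groups did not overlap, and their SDs were 0.15 and 0.22 (n = 4). The difference was -1.08 ± 0.11 (SE), with 47.4% of the control level left. Susd4 encodes a membrane protein with sushi domains that inhibits complement. It read 8.73, 8.94, 8.40 and 8.91 in controls and 7.35, 7.62, 7.96 and 7.82 in knockouts. Its difference was -1.05 ± 0.15 (SE), nearly that of Nlrp6, and the groups were 0.43 apart at their closest.

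Krt23, a type I keratin that damaged hepatocytes can switch on, was the dimmest of the 8 and close to the middle of all genes. WT replicates 1 to 4 read 5.50, 6.41, 5.48 and 6.05, and NCOR_KO replicates 1 to 4 read 4.79, 4.81, 5.14 and 4.81 (log2 intensity). The controls spread over 0.93 units and the knockouts over 0.36, with NCOR_KO replicate 3 alone above the other 3. The difference of -0.97 ± 0.19 (SE) shrank to -0.79 without WT replicate 2. All 4 knockout values lay below the median gene level, taken from means over all 8 arrays (5.88). Adh6-ps1 is classed by RefSeq as a transcribed pseudogene, a relative of the alcohol dehydrogenase genes beside it. It read 9.86, 9.35, 9.59 and 9.78 in controls and 7.60, 8.18, 8.59 and 9.001 in knockouts, so that its knockout values covered 1.40 units against 0.50 in controls. The difference was -1.30 ± 0.25 (SE), or -1.05 without NCOR_KO replicate 1.

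Gpr155, a lysosomal membrane protein (LYCHOS) that senses cholesterol and passes the signal to the growth kinase complex mTORC1, is the only one of the 8 with several rows, and they disagreed. The brightest row (17386514) read 9.53, 9.41, 9.62 and 9.63 in WT replicates 1 to 4 and 8.62, 8.10, 8.69 and 8.07 in NCOR_KO replicates 1 to 4. Its difference was -1.18 ± 0.14 (SE) with no overlap. The second row (17371990) read 4.90, 4.78, 4.87 and 4.92 against 5.10, 5.01, 4.82 and 4.73, a difference of 0.05 ± 0.08. The third (17371993) read 4.41, 4.49, 4.76 and 4.81 against 4.83, 4.66, 4.68 and 4.29, where the group means were 4.62 ± 0.20 and 4.62 ± 0.23 (SD, n = 4). Both of these rows lay below the median gene of 5.88 in every array and had overlapping groups, and the mean of the 3 rows differed by only -0.38. Which transcript each row measures is not given in the files used here.

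**Figure D1:**
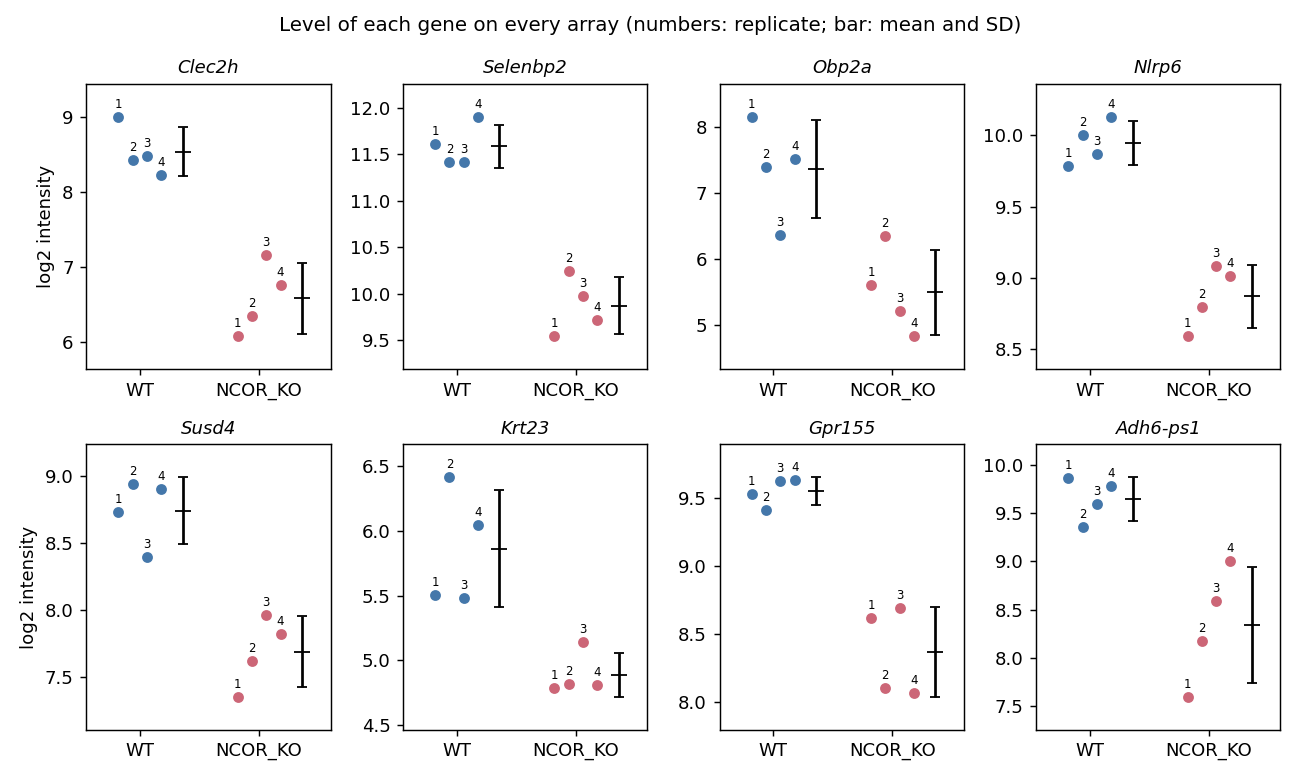
Log2 intensity (y axis) of the brightest probe set of each of the 8 genes on each of the 8 arrays, WT in blue and NCOR_KO in red, numbered by replicate, with the mean and SD (n = 4) at the right of each group. The groups are apart in every panel, by 1.17 for Selenbp2 but by only 0.02 for Obp2a.

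**Figure D2:**
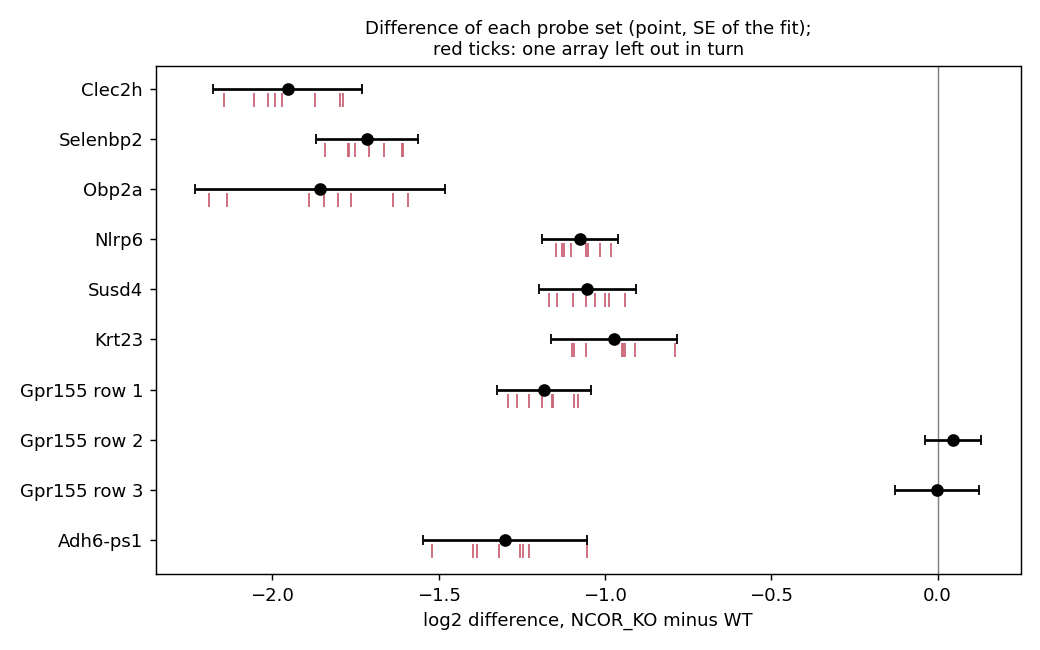
Log2 difference NCOR_KO minus WT (x axis) for all 10 rows, with points and bars for the fit and its SE and red ticks for the brightest rows with 1 array left out in turn. The brightest rows run from -1.95 to -0.97, while Gpr155 rows 2 and 3 sit within 1 SE of 0.

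In order of their drop the genes stood at ranks 2 (Clec2h), 3 (Obp2a), 4 (Selenbp2), 8 (Adh6-ps1), 12 (Gpr155), 14 (Nlrp6), 15 (Susd4) and 19 (Krt23) among all 22180. Neighbours in that order differed by less than the SE of either one in several places, for example Obp2a beside Clec2h and Susd4 beside Nlrp6, so the order inside the group is loose. No numerical limit was stated for the choice, and 11 other genes were lower by at least as much as Krt23. Groups did not overlap in 7 of these 11, against 5.49% of all genes with all knockout values below all controls. Nothing is read from that count, since the size of the drop picked these genes too. Leaving out predicted gene symbols, the genes nearest to Krt23 on the side of larger drops were Gbp10 (-1.02), Cabyr (-1.05) and Saa2 (-1.08), and those on the other side were Zfp39 (-0.97), Rian (-0.94) and Adgrf1 (-0.94). The median difference of the 8 was -1.24, against 0.01 over all genes.

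Inside each group the 8 genes varied more than most genes of like level, and a choice by the size of a drop in these same arrays favours genes with a wide spread. All 8 had a pooled within-group SD above the median of genes whose control level lay within 0.5 log2 units of their own. For Obp2a it was 0.69 against a median of 0.12, above 99.8% of the 2485 genes near its level. For Nlrp6, the lowest of the 8, it was 0.19 against 0.09, above 91.3% of 1238 genes. Among knockouts, replicate 1 was lowest for 6 of the 8 genes (all but Obp2a and Gpr155) and replicate 3 highest for 5. Among controls no array was the usual extreme: replicates 2 and 3 were each lowest for 3 genes, and replicates 1 and 4 each highest for 3. On the first principal component, which parts the groups and to which these genes contribute, NCOR_KO replicate 1 also lay farthest from the controls (-18.7) and NCOR_KO replicate 3 nearest (-8.87).

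**Figure D3:**
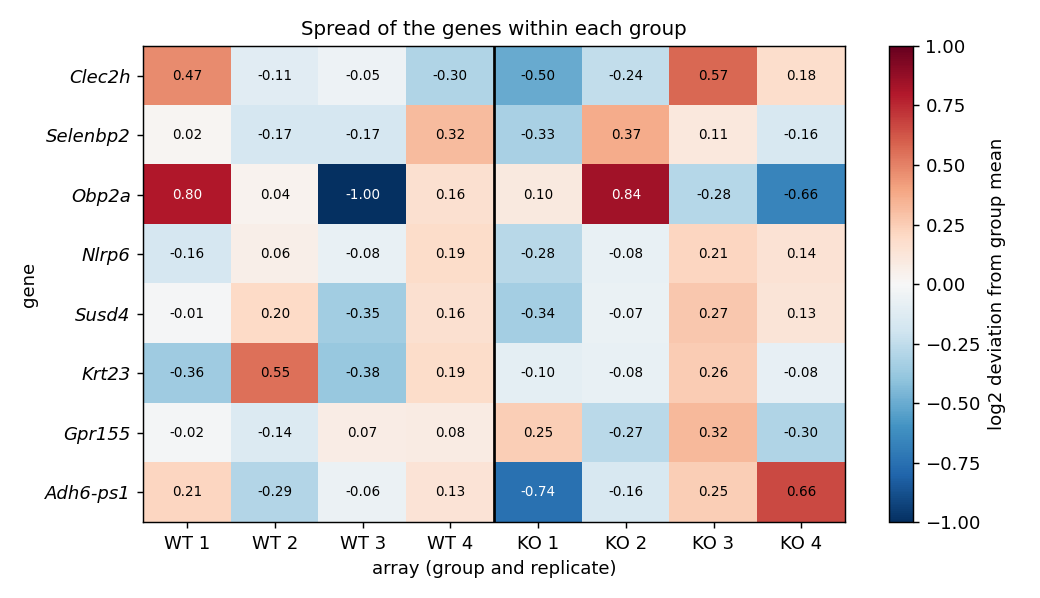
Deviation of each gene (rows) from its group mean on every array (columns), in log2 units, blue below and red above the mean. NCOR_KO replicate 1 is the lowest knockout array for 6 of 8 genes and NCOR_KO replicate 3 the highest for 5.

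Relatives of the 8 genes were then examined in the limma fit over all genes, in which 1.65% were called at an adjusted p under 0.05, 0.816% as higher and 0.834% as lower. At an unadjusted p under 0.05 stood 15.9% of all genes. In the 6 lists with 0 called, 2 of 28 lectin genes, 2 of 27 lipocalins and 0 of 28 inflammasome genes stood there. So did 10 of 25 sushi-domain and complement genes, 5 of 29 keratins and 4 of 24 dehydrogenases. In the C-type lectin and natural killer complex list 0 of 28 measured genes passed, with a median difference of 0.03. Of these 28, 17 were dimmer than the median gene in control liver. The relative Clec2d, a ligand of the NKR-P1 receptors that was bright in liver, was at -0.30 ± 0.09 (SE, adjusted p = 0.143), or at -0.20 without both arrays that stood apart. Of 27 lipocalins and related carriers 0 passed, and 15 of the 27 were dimmer than the median gene in control liver. Obp2b, the closest paralog of Obp2a, was at 3.64 in control and 3.59 in knockout liver, among the dimmest probe sets, and the acute phase carrier Orm2 was at -1.30 ± 0.67 (adjusted p = 0.375), or at -0.45 without WT replicate 1.

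Of 28 inflammasome and NOD-like receptor genes 0 passed and 15 of them lay above 0. The largest difference was that of the cytokine gene Il1b, 0.39 (adjusted p = 0.686), which was -0.09 without NCOR_KO replicate 2. The adaptor Pycard was at 0.19 (adjusted p = 0.471), the protease gene Casp1 at 0.03 (adjusted p = 0.930), the cytokine Il18 at -0.11 (adjusted p = 0.653), Nlrp3 at 0.07 (adjusted p = 0.702) and Nlrp12 at 0.09 (adjusted p = 0.722). Of 25 sushi-domain and complement genes 0 passed, although in 7 all knockout values lay below all controls, against 5.49% of all genes. With median centring 3 of them fell, among genes at or above the median level 3 fell, and with trend and robust variance 2 fell. Susd1, Susd2, Susd3 and Susd6 lay between -0.04 and 0.18, and the decay accelerating factor gene Cd55 was at 0.31 (adjusted p = 0.215). The protease gene C1s1 was at -0.42 (adjusted p = 0.0751) and passed in 3 of 16 other fits. With the mean of its probe sets C1s1 was at -0.48 (adjusted p = 0.0043).

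Of 29 keratins and filament partners 0 passed, and the hepatocyte pair Krt8 (0.04, adjusted p = 0.815) and Krt18 (0.02, adjusted p = 0.902) and the bile duct keratins Krt7 (0.07, adjusted p = 0.726) and Krt19 (0.08, adjusted p = 0.535) were close to 0, against -0.97 for Krt23. In control liver 20 of the 29 were dimmer than the median gene, among them Krt7 (5.51) and Krt79 (5.68), where a drop is hard to see. The largest difference in the list was that of Krt79, 0.27 (adjusted p = 0.495), or 0.11 without NCOR_KO replicate 1 and 0.12 without WT replicate 4. Of 10 bile duct markers 1 (Epcam) rose and 9 did not pass. Their median difference was 0.15, 9 lay above 0, 8 were dimmer than the median gene, and they had a summed intensity of 451 to 482 in control and 520 to 594 in knockout arrays. Endothelial markers were above 0 in 13 of 13, of which 1 rose, with sums of 8251 to 9891 in control and 9453 to 10849 in knockout arrays. Markers of natural killer and T cells summed to 429 to 458 and 449 to 518, and 1 of 11 rose. B cell markers summed to 251 to 297 and 290 to 328, and 1 of 7 rose. Kupffer cell and macrophage markers summed to 3522 to 6335 in control and 4009 to 6864 in knockout arrays, and 0 of 12 passed. Stellate cell markers summed to 7381 to 7995 and 7194 to 8411, and 0 of 12 passed. Intestinal epithelium markers summed to 1092 to 1434 and 1323 to 1446, and 0 of 9 passed. The part of these cells in the levels of the 8 genes was not tested.

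In the list around Gpr155, lysosomal sterol and amino acid sensing to mTORC1, 1 of 35 genes fell, 0 rose and 34 did not pass, with a median of -0.06. The one that fell was Flcn, the folliculin gene, whose product acts on the Rag GTPases (-0.41 ± 0.08 SE, adjusted p = 0.0359). That call was lost without any single array other than WT replicate 2, at adjusted p-values from 0.0636 to 0.106. It was also lost with the replicate number as a block (adjusted p = 0.0756). The GATOR1 genes Depdc5 (-0.09), Nprl2 (-0.09) and Nprl3 (-0.06) and the sterol exporter gene Npc1 (-0.08) had adjusted p-values of 0.530, 0.551, 0.640 and 0.693. Among 27 selenium genes 1 fell, 0 rose and 26 did not pass. It was Sephs2, which makes the selenium donor for selenoproteins (-0.33 ± 0.06 SE, adjusted p = 0.0375). The Sephs2 call was lost without any single array other than WT replicate 3 (adjusted p = 0.0663 to 0.103). It was also lost without both arrays that stood apart (adjusted p = 0.132) and with the replicate number as a block (adjusted p = 0.102).

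Of 24 alcohol and aldehyde dehydrogenase genes 0 passed, although the pseudogene Adh6-ps1 sits among them on chromosome 3. The parent-like genes Adh6a (4.52 and 4.43) and Adh6b (4.02 and 4.02) were dim in control and knockout liver. Adh1, the main liver alcohol dehydrogenase, was at -0.06 (adjusted p = 0.664), Adh4 at -0.17 (adjusted p = 0.388), Adh5 at -0.12 (adjusted p = 0.422) and Adh7 at -0.28 (adjusted p = 0.124). The level of Adh6-ps1 is uncertain to the extent that its probes share sequence with these relatives.

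Selenbp2 and Susd4 are known for higher levels in male mouse liver, so genes known to differ between the sexes were set beside the 8, with these 2 left out. The male-biased and female-biased lists were chosen with earlier results of these data known. Their counts and medians are therefore a description only. The sex of the animals is not in the labels. In every array the X-inactivation transcript Xist was dim (4.01 to 4.56) and 3 Y-linked genes were bright (7.48 to 9.24). Of 32 other male-biased genes 3 fell, 1 rose and 28 did not pass. Their median was -0.34, and 25 of 32 lay below 0. In 12 of the 32 all 4 knockout values lay below the controls, a pattern seen in 5.49% of all genes. Those that fell were Cyp7b1, an oxysterol hydroxylase (-0.84 ± 0.18 SE, adjusted p = 0.0449), C8b, a complement component (-0.38, adjusted p = 0.0466), and Gstp1, a glutathione transferase (-0.35, adjusted p = 0.0359). The one that rose was the elongase Elovl3 (0.72 ± 0.14 SE, adjusted p = 0.0359).

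Of 33 female-biased genes 4 rose, 0 fell and 29 did not pass, with a median of 0.24 and 26 above 0. The steroid hydroxylase gene Cyp17a1 rose by 1.97 ± 0.12 (SE, adjusted p = 3.99e-05), the lipoprotein lipase gene Lpl by 0.88 ± 0.13 (adjusted p = 0.00888), and the cytochrome P450 genes Cyp2a4 by 0.74 ± 0.14 (adjusted p = 0.0355) and Cyp3a44 by 0.71 ± 0.08 (adjusted p = 0.00200). Cyp17a1, Lpl and Cyp3a44 passed in all 16 other fits, with Lpl at 0.49 when its probe sets were averaged. The calls of the remaining 5 named sex-biased genes were lost when most single arrays were left out: Cyp7b1 without any but WT replicate 3 (adjusted p = 0.0604 to 0.119), C8b without any (adjusted p = 0.0678 to 0.109), Gstp1 without any but WT replicate 3 and NCOR_KO replicate 1 (adjusted p = 0.0659 to 0.113), Elovl3 without any but WT replicate 2 and NCOR_KO replicate 4 (adjusted p = 0.0715 to 0.112) and Cyp2a4 without any but NCOR_KO replicate 3 (adjusted p = 0.0624 to 0.104). Without both arrays that stood apart, 2 male-biased genes fell and 1 rose, and 3 female-biased genes rose; Cyp7b1, C8b and Gstp1 were not among those that fell (adjusted p = 0.135, 0.118 and 0.0550), nor Cyp2a4 among those that rose (adjusted p = 0.0952). With every array kept, Cyp7b1 also lost the call with array weights (adjusted p = 0.0560) and with trend and robust variance. Cyp7b1, C8b and Gstp1 lost it too with the replicate number as a block. Probe sets of neighbouring P450 genes can share signal.

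**Figure D4:**
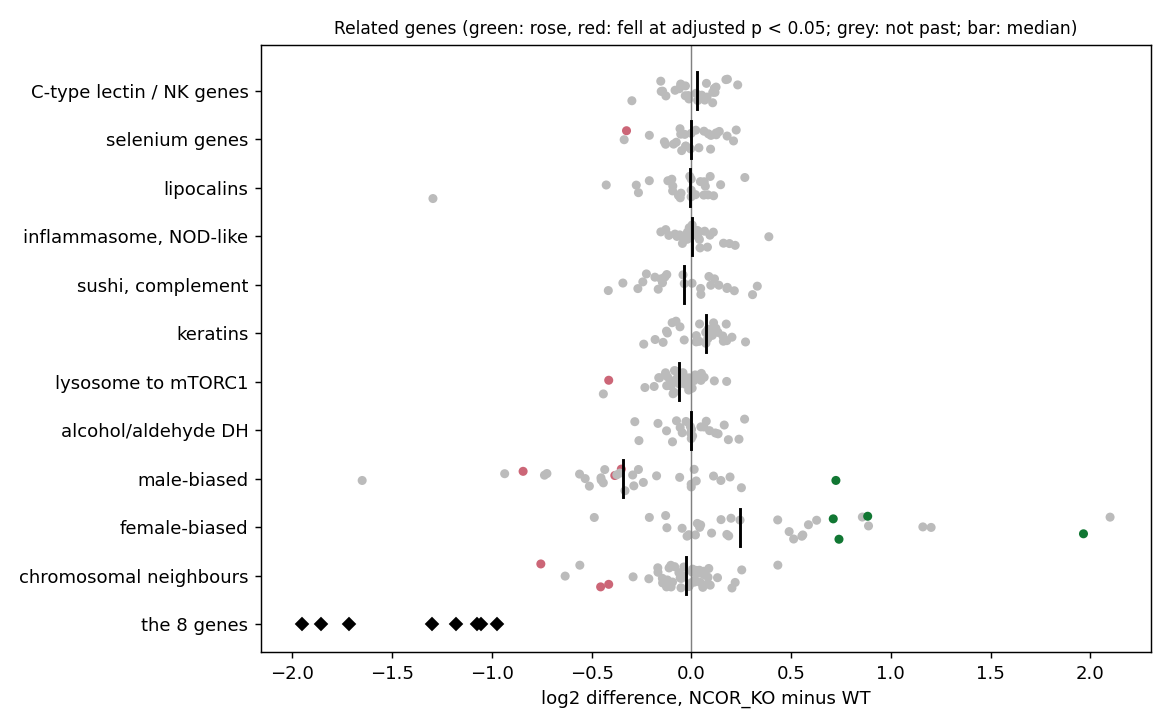
Log2 difference NCOR_KO minus WT (x axis) of every measured gene in 11 lists (rows, points spread vertically for visibility), coloured by the limma call, with the list median as a bar and the 8 genes as diamonds below. Most relatives lie near 0. The male-biased list has a median of -0.34 and the female-biased list of 0.24, and the lists were chosen with earlier results of these data known.

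Of the 48 measured genes that flank the 8 on their chromosomes, 3 on each side, 3 fell, 0 rose and 45 did not pass, and each of the 3 lay beside a different gene. Bmyc, a member of the Myc family next to Obp2a, went from 9.13 ± 0.13 to 8.38 ± 0.17 (SD, n = 4), a change of -0.75 ± 0.10 (SE, adjusted p = 0.00460) that passed in all 16 other fits but was -0.36 with the mean of its probe sets. BC024386, next to Nlrp6, was bright in liver (11.81 ± 0.04 in control, SD, n = 4) and changed by -0.46 ± 0.07 (SE, adjusted p = 0.0142), or adjusted p = 0.0585 without NCOR_KO replicate 2. Cir1, a corepressor gene that is the second from Gpr155, changed by -0.41 ± 0.07 (adjusted p = 0.0185). Cir1 lost the call without NCOR_KO replicate 1 (adjusted p = 0.0593), NCOR_KO replicate 2 (0.0753) or WT replicate 1 (0.0579). The call was also lost without both arrays that stood apart (adjusted p = 0.0828) and with the replicate number as a block. The genes flanking Krt23 (-0.12 to 0.20) and Adh6-ps1 (-0.17 to 0.01), mostly their own families, stayed far from the drop of the gene between them. So did those around Clec2h (-0.21 to 0.25). In control liver, however, 24 of the 48 flanking genes were dimmer than the median gene, where a drop is hard to see. They included every flank of Krt23 (3.84 to 5.79 in control), and Adh6a (4.52) and Adh6b (4.02) beside Adh6-ps1. Beside Clec2h they included A2ml1 (4.86), Klrb1 (5.07), Klrb1c (4.30) and Klrb1b (4.55). Flanks of Selenbp2 ran from -0.63 to 0.04 and those of Susd4 from -0.56 to 0.43. Tuft1 beside Selenbp2 (-0.63, adjusted p = 0.0838) and Capn8 beside Susd4 (-0.56, adjusted p = 0.0632) did not pass. Their drops were nevertheless larger than those of BC024386 and Cir1. In 6 of the 48 flanking genes all knockout values lay below all controls, against 5.49% of all genes.

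**Figure D5:**
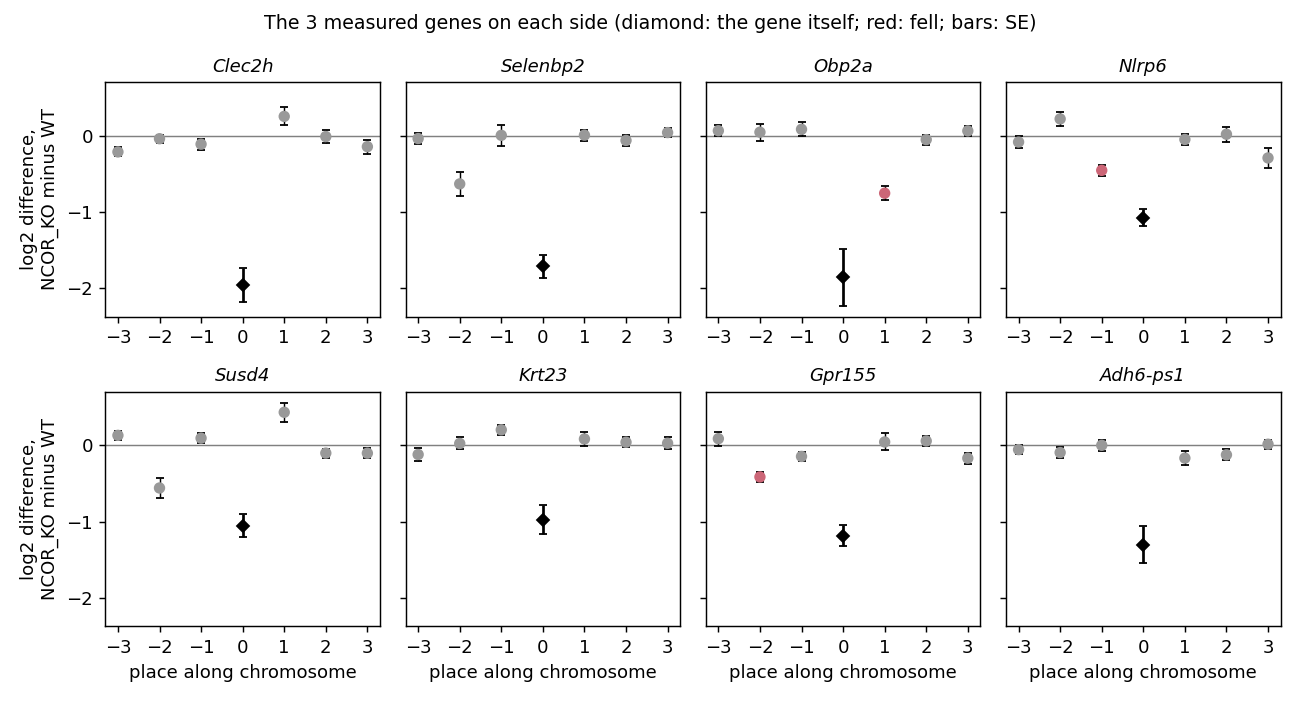
Log2 difference NCOR_KO minus WT (y axis, bars SE) of each of the 8 genes (diamond, place 0) and of the 3 measured genes on each side in chromosomal order (x axis, not to distance). Only Bmyc beside Obp2a, BC024386 beside Nlrp6 and Cir1 beside Gpr155 are red, which marks a fall at an adjusted p under 0.05.

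Likeness of pattern was measured as the mean absolute distance between log2 values centred per gene over the 8 arrays, and serves only as a description, since it depends largely on the size of the difference that chose the genes. The non-member closest to Clec2h and to Selenbp2 was the organic anion transporter gene Slc22a7, at 0.26 and 0.27. Next to Clec2h came the male-biased steroid dehydrogenase gene Hsd3b5 (0.31, 10.51 in control and 8.86 in knockout liver, adjusted p = 0.0624) and then Scara5, Gbp10 and Zfp39. For Selenbp2 the following were Scara5 (0.33), Zfp39, Adgrf1 and Gbp11. For Nlrp6 the nearest were F11, the gene of coagulation factor XI, at 0.07, then Susd4 at 0.09 and Rian, Tmem25, Rhbg and Car1 at 0.12 to 0.18. Obp2a, the most variable, was the farthest of the 8 from both Clec2h (0.65) and Nlrp6 (0.66).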

How the data were processed

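Total RNA of 8 livers was hybridised to 1-colour Affymetrix Mouse Gene 2.0 arrays, 4 per group, with groups and replicate numbers taken from the sample titles. Each deposited file gives linear-scale intensity for every probe set. Per the submitters' processing notes RMA and Partek were used; their settings, versions and the genome build are not given in the sources used here. Log2 was taken of the deposited intensity and no further normalization was applied. Of 41345 probe sets, 23521 had 1 gene (GEO platform annotation, symbols updated through RefSeq, 23328 matched), 1814 had several and 16010 none. For each of 22180 genes the probe set with the highest mean was kept.

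Groups were compared with limma 3.58.1 in R 4.3.3 (lmFit, eBayes, intercept and group) and adjusted by Benjamini-Hochberg over all genes at 0.05, and the steps were tested on simulated data. Replicate numbers did not pair the arrays (correlations of deviations -0.09 to 0.02). The 8 genes, the lists and the motifs were chosen with earlier results of these data known. Genes of the lists and flanks were named when past the threshold (up to 6 per list), or as the largest change where none passed, along with a set of closest relatives, and the nearest in rank and pattern. Epcam and Cebpa were picked for naming with their values known. Other settings tried were quantile normalization, median centring, a level filter, averaging all rows of a gene, single probe sets, a replicate block, array weights, trend and robust variance, and leaving out each array. A fit lacking both arrays lowest on the second component (WT 2, NCOR_KO 1) was added once the data had been seen. Array number limits the precision of all values.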

Additional observations from a re-analysis of the deposited data

Results flagged for a closer look

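Within groups of 4 arrays, 1 of the 8 genes had an array far from the other 3 by Dixon's test at 95%: Krt23 in NCOR_KO replicate 3, at 5.14 (log2 intensity) with the others between 4.79 and 4.81. The same test singled out 4 related genes. Orm2 read 11.86 in WT replicate 1 and 8.17 to 8.70 in the other controls. C8b read 12.40 in WT replicate 1 and 12.14 to 12.16 in the others. Gstp1 read 12.60 in NCOR_KO replicate 1 and 12.42 to 12.43 in the others. BC024386 read 11.55 in NCOR_KO replicate 3 and 11.28 to 11.32 in the others. In all 116 groups were examined, 5 of which held such an array, where chance gives about 1 in 20.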

How the results depend on the processing

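The median difference of the 8 genes, -1.24, ran from -1.34 to -1.16 with 1 array left out; its sign was set by the choice of the genes. For Gpr155 it was -0.38 with the mean of its rows, and the second row alone gave 0.0473 and the third -0.00246. The count of called genes, 366 (181 higher, 185 lower), was 530 with median centring, with a split of 147 and 383, 551 among genes at or above the median level and 202 without both arrays that stood apart. It ran from 120 to 297 with single arrays left out. The 13 calls among 316 related and flanking genes became 26 with centring and 22 among the brighter genes, and 4 to 11 without single arrays. With the replicate number as a block, which the arrays did not follow, 155 genes and 11 related genes were called. Of the 13 called genes named here, 4 (Cyp17a1, Lpl, Cyp3a44, Bmyc) kept the call in all 16 other fits and 9 lost it in at least 1, where fits without an array also have fewer samples. The signs of the male-biased and female-biased medians held in the 16 other fits, the single probe set fit not being run for the lists. The intensities of Krt23, Obp2b, Adh6a, Adh6b and 2 rows of Gpr155, near or below the median gene, limit what can be seen of them. The same limit holds for the other dim genes of the lists and flanks.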
